A study of Mus musculus with 5 samples.

Results

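This comparison sets the RNA of B16F10 cells from conventional 3D culture against the RNA of B16F10 cells labelled shControl, over all genes of 1 table of gene counts. B16F10 is a pigmented mouse skin melanoma cell line. The comparison uses 2 of the 5 libraries of the series, 1 library for each group, with conventional 3D culture as the numerator throughout. All 54100 genes of the table were considered, and 12929 are called measured, those that averaged 1 CPM or more over the 2 libraries (counts per 1e6 reads, scaled by TMM, a trimmed mean of ratios between libraries). Both groups are labelled with the genotype WT and no treatment. The design text lists shControl with the HIF-1α knockdown and overexpression cells as their control, and the labels describe neither a construct nor a vector. The labels also give both groups the same growth protocol, serum-free DMEM/F12 with shaking (60 to 80 rpm) over 7 to 10 days, after which spheroids were picked. How the groups differed is therefore known from the sample titles alone, and an effect of the culture and an effect of the shControl cells cannot be told apart. In each group 3 repeats were pooled into 1 library, so no difference has a replicate check, no test was possible and no p-value is given.

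Tumour cells grown as spheroids meet gradients of oxygen, nutrients and cell contact that a monolayer does not have. When oxygen is short, the HIF-1α protein escapes degradation, joins its partner Arnt and switches on genes for glycolysis, lactate export, pH control and mitophagy. In melanoma such cultures are used to enrich stem-like cells, and the programs usually followed in them are proliferation, the pigment cell lineage, stress responses and contact with the matrix.

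Summed over genes, the deposited values came to 61267892 for conventional 3D culture and 59493240 for shControl, and 19689 and 20653 genes had a value above 0. Of the 12929 measured genes, the conventional 3D library was higher beyond 2-fold in 1819 (14.1%) and lower in 1925 (14.9%), so 29.0% were called in either direction. A call needed a log2 ratio of 1 or more in either direction, and the 95% counting interval of the ratio, an exact binomial interval that covers counting error only, had to exclude equality. Scaling by the total of the values in place of TMM moved the median of all genes down by 0.26 on the log2 scale and gave 1278 higher and 2745 lower, a share of 31.8% higher among called genes against 48.6%. The mitochondrially encoded genes took 13.18% of the values in conventional 3D culture and 3.931% in shControl. The median log2 ratio over all measured genes was -0.01, and the shares and the median given here are the background for the gene groups below. Called genes reached far: 518 were higher and 386 lower beyond 4-fold, and 69 and 35 beyond 16-fold. At the edge of the call, Mlkl stood at 83.4 against 41.6 CPM (log2 ratio 1.00, called) and Scarf2 at 154.0 against 77.0 CPM (0.999, not called).

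**Figure D1:**
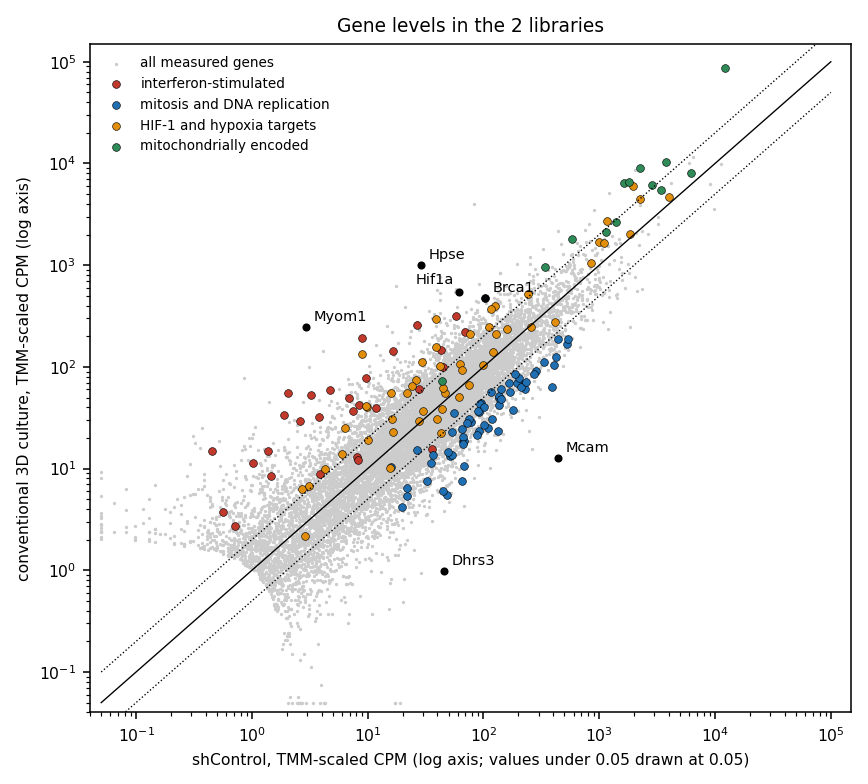
Each point is a measured gene, with its TMM-scaled CPM in the shControl library on the horizontal log axis and in the conventional 3D library on the vertical log axis. On the solid line the values are equal and the dotted lines mark 2-fold. Colours mark interferon-stimulated (red), mitosis and DNA replication (blue), hypoxia (orange) and mitochondrially encoded genes (green). The cloud is about as wide above the diagonal as below it, with 1819 genes called higher and 1925 called lower, and Hif1a and Brca1 lie among the genes that are higher in conventional 3D culture.

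Both libraries had the RNA of pigment cells. All 8 melanocyte markers were measured, with a summed level of 32467 CPM in conventional 3D culture and 25482 CPM in shControl, and 7 of the 8 lay inside 2-fold. No epithelial marker of 10 and no erythroid marker of 5 reached the 1 CPM mean. Among other cell types, 3 of 12 immune, 7 of 8 fibroblast, 2 of 8 endothelial and 5 of 8 Schwann or neural markers were measured, and their values are given beside the gene groups they touch. In bulk RNA, fewer cells of a type and less RNA per cell cannot be told apart.

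Hif1a, which encodes the oxygen-regulated subunit of HIF-1, was 1 of the strongly higher genes (ENSMUSG00000021109, GRCm38 chr12:73901375-73947530, plus strand, protein-coding). It stood at 542 CPM in conventional 3D culture (535 to 548, the 95% Poisson interval for counting error) and 61.3 CPM in shControl (59.4 to 63.3). The 2 intervals lie far apart, and the ratio was 8.83-fold (log2 ratio 3.14, counting interval 3.09 to 3.19). In the dynamic suspension library Hif1a was 390.5 CPM, so shControl was low beside both cultures without a construct label. The other genes of the oxygen-sensing machinery differed less. Of 8 measured with Hif1a counted in, 2 were higher (25%), Hif1a and Egln3, and 0 lower, with a median log2 ratio of 0.56. By total scaling 1 was higher. Egln3, a prolyl hydroxylase that marks HIF-α proteins for degradation, was 9.96 against 4.30 CPM (log2 ratio 1.20), and its relative Egln1 was 99.6 against 50.0 CPM (0.99), just inside 2-fold. Epas1, which encodes HIF-2α, was 24.1 against 13.1 CPM (0.88) and Arnt 69.2 against 58.0 CPM (0.25).

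Genes that HIF-1 is known to switch on were mostly higher or level, and 0 of them were lower beyond 2-fold. Among 22 measured glycolytic targets 11 were higher (50.0%, median log2 ratio 0.88), and by total scaling 7 were higher and 0 lower. Aldoc, an aldolase of the brain type, was 134 CPM in conventional 3D culture, 8.88 CPM in shControl and 143 CPM in dynamic suspension (log2 ratio 3.91, counting interval 3.79 to 4.04). Slc16a3, the lactate exporter MCT4, was 293 CPM against 39.1 CPM (2.90, interval 2.84 to 2.97). The pyruvate dehydrogenase kinase Pdk1, which keeps pyruvate out of the mitochondrion, was 112 against 29.2 CPM (1.94), the hexokinase Hk1 395 against 125 CPM (1.66) and the abundant aldolase Aldoa 5965 against 1959 CPM (1.61). The most abundant members inside 2-fold were Eno1 at 4659 against 4036 CPM (0.21) and Pgk1 at 2041 against 1846 CPM (0.14). Both are marked as shared sequence, meaning that at least 20% of the gene's 50-base words also occur in another gene, so their values are uncertain.

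Outside glycolysis, 14 of 30 measured hypoxia targets were higher (46.7%) and 0 lower, with a median log2 ratio of 0.92, and by total scaling 10 were higher and 1 lower. Car9, the cell-surface carbonic anhydrase that regulates pH, stood at 24.8 CPM in conventional 3D culture and 6.41 CPM in shControl (1.95). The mitophagy receptor Bnip3 (shared sequence) was 157 against 39.1 CPM (2.0), the nuclear receptor Rora 41.1 against 9.64 CPM (2.09) and the cyclin Ccng2 40.3 against 9.82 CPM (2.03). Mxi1, an antagonist of Myc, was 65.4 against 24.1 CPM (1.44), and the histone demethylase Kdm4b 101 against 42.2 CPM (1.26). In contrast the collagen lysyl hydroxylases Plod1 (249.2 against 258.9 CPM) and Plod2 (141 against 120.0 CPM) and the demethylase Kdm3a (104 against 98.6 CPM) lay inside 2-fold. For several of these genes dynamic suspension stood above both libraries, for example Bnip3 at 640.4 CPM and Egln1 at 299.5 CPM. Over all oxygen-dependent demethylases, 3 of 16 were higher (18.8%) and 0 lower.

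**Figure D2:**
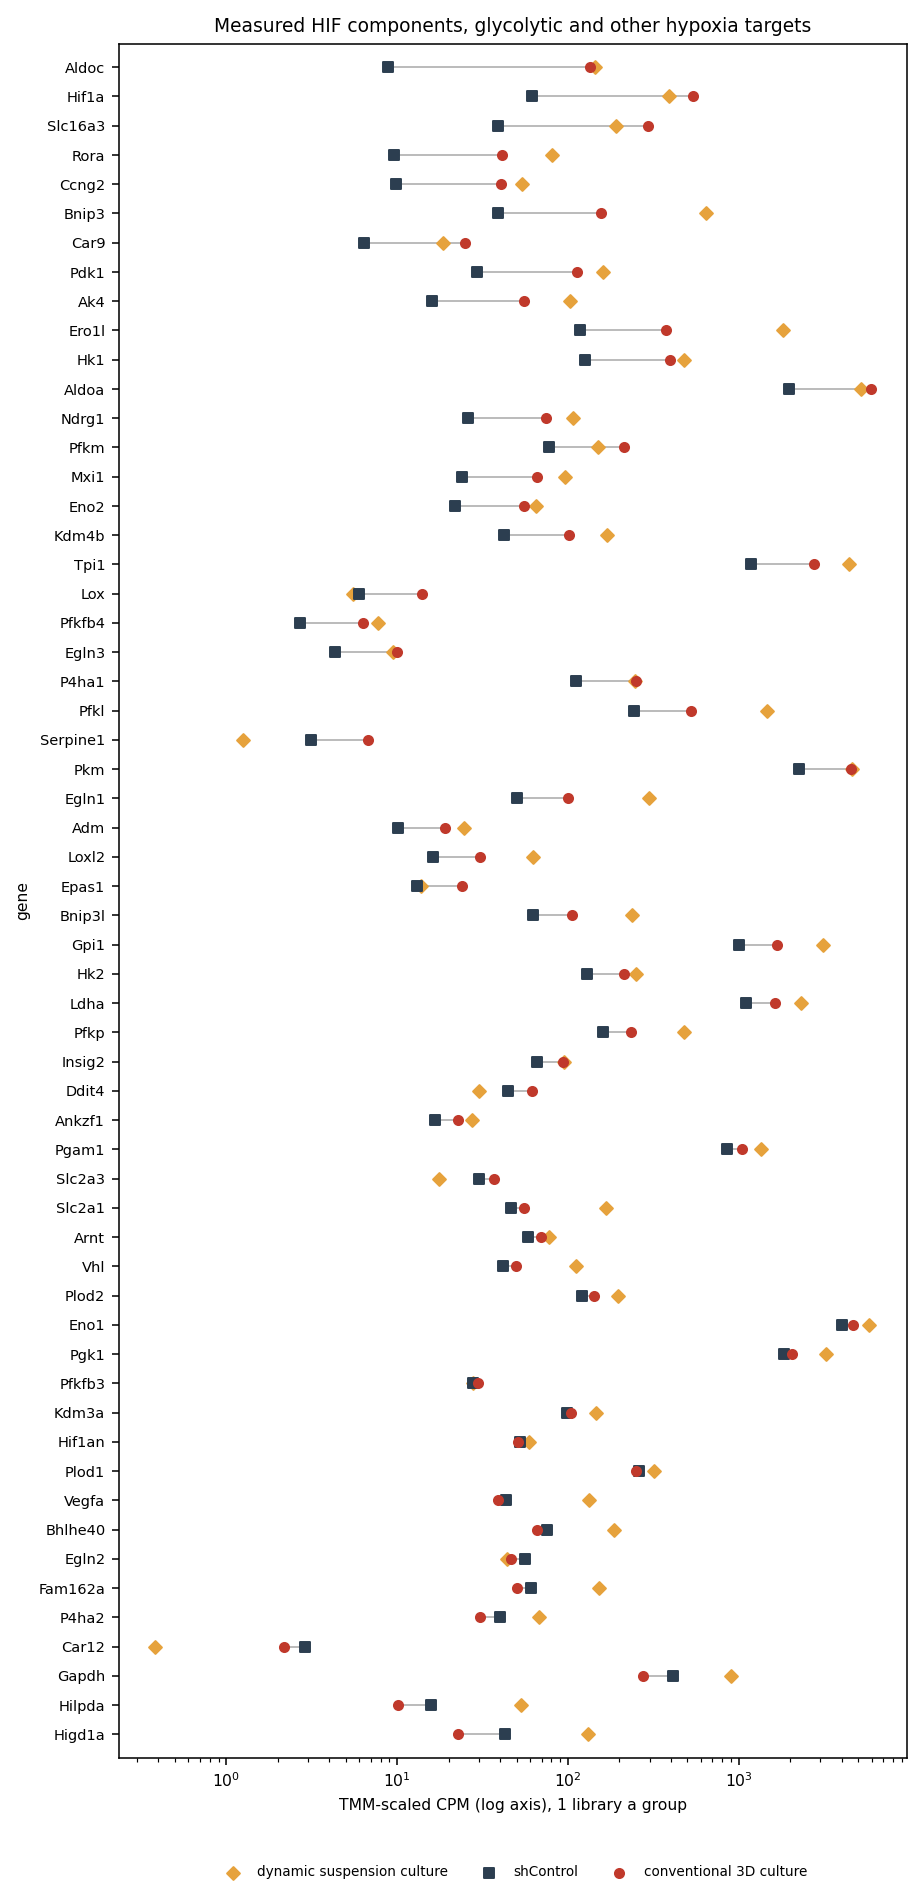
TMM-scaled CPM (horizontal log axis) of the measured HIF-1 glycolytic targets and other hypoxia targets in conventional 3D culture (red circles), shControl (dark squares) and dynamic suspension (orange diamonds), 1 library each. The red circle lies to the right of the dark square for most genes, from Aldoc (134 against 8.88 CPM) down to genes such as Plod1 (249.2 against 258.9 CPM) where they nearly coincide.

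The core of the hypoxia response element, ACGTG on either strand, was looked for in the 250 bases before each RefSeq start (GRCm38.p6). It occurred in 14 of 33 windows (42.42%) of 21 hypoxia targets outside glycolysis and in 13 of 34 windows (38.24%) of 21 glycolytic targets. The share was 16.57% over 32851 windows of all genes and 21.92% over measured genes. It was 38.46% for lysosome genes and 32.0% for mitosis genes, and 20.25% over all genes higher beyond 2-fold, so the letters are not particular to the hypoxia lists. ACGTG overlaps the E-box CACGTG, which contains it. Windows of Car9, Bnip3 and Ak4, a mitochondrial adenylate kinase gene at 55.5 against 15.9 CPM (1.8), are shown because each holds the core before a gene that was higher in conventional 3D culture (matches in capitals, 5′ to 3′ on the gene's strand). They are Car9 at chr4:43506776-43507025, plus strand; Ak4 at chr4:101419453-101419702, plus strand; and Bnip3 at chr7:138909507-138909756, minus strand.
Car9: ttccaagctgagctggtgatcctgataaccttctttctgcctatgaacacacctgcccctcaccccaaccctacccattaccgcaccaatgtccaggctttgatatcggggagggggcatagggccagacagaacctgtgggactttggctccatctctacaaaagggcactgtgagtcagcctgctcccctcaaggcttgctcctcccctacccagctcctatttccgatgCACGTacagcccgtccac
Ak4: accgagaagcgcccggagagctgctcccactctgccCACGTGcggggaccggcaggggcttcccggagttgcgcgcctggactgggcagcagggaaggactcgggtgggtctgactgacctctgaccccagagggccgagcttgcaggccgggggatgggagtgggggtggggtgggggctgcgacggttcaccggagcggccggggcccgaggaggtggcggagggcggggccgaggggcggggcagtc
Bnip3: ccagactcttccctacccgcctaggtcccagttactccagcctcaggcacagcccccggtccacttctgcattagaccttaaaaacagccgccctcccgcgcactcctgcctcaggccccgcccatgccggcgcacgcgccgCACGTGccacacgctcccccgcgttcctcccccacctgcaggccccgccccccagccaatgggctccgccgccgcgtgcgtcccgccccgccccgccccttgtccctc
In Car9 the match lies 18 to 14 bases before the start. In Ak4 and Bnip3 the core is read on both strands of 1 palindrome. A match is a run of letters and was not tested as a binding site.

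Interferon-stimulated genes, which cells switch on when they sense interferon or viral nucleic acid, were higher in conventional 3D culture almost throughout. Of 29 measured, 26 were higher (89.7%) and 1 lower, with a median log2 ratio of 2.66, and by total scaling 23 were higher and 1 lower. Their summed level was 2056 CPM against 420 CPM. Irf7, the transcription factor that amplifies interferon production, was 14.9 CPM in conventional 3D culture, 0.455 CPM in shControl and 11.8 CPM in dynamic suspension (log2 ratio 4.93, counting interval 4.49 to 5.63). Rtp4, an interferon-induced chaperone of membrane receptors, was 55.7 against 2.05 CPM (4.74) and Usp18, the protease that removes the ubiquitin-like modifier ISG15, 33.6 against 1.88 CPM (4.13). Ifit3 and Ifit3b, antiviral RNA-sensing adaptor genes that share sequence, were 192 against 9.01 CPM (4.41) and 52.4 against 3.25 CPM (4.0). These genes were low in shControl and higher in each of the 2 cultures without a construct label. The exceptions were Cxcl10, a chemokine that attracts T cells, at 15.6 against 35.8 CPM (-1.20), and Ifit1 and Gbp2 at log2 ratios of 0.70 and 0.55.

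**Figure D3:**
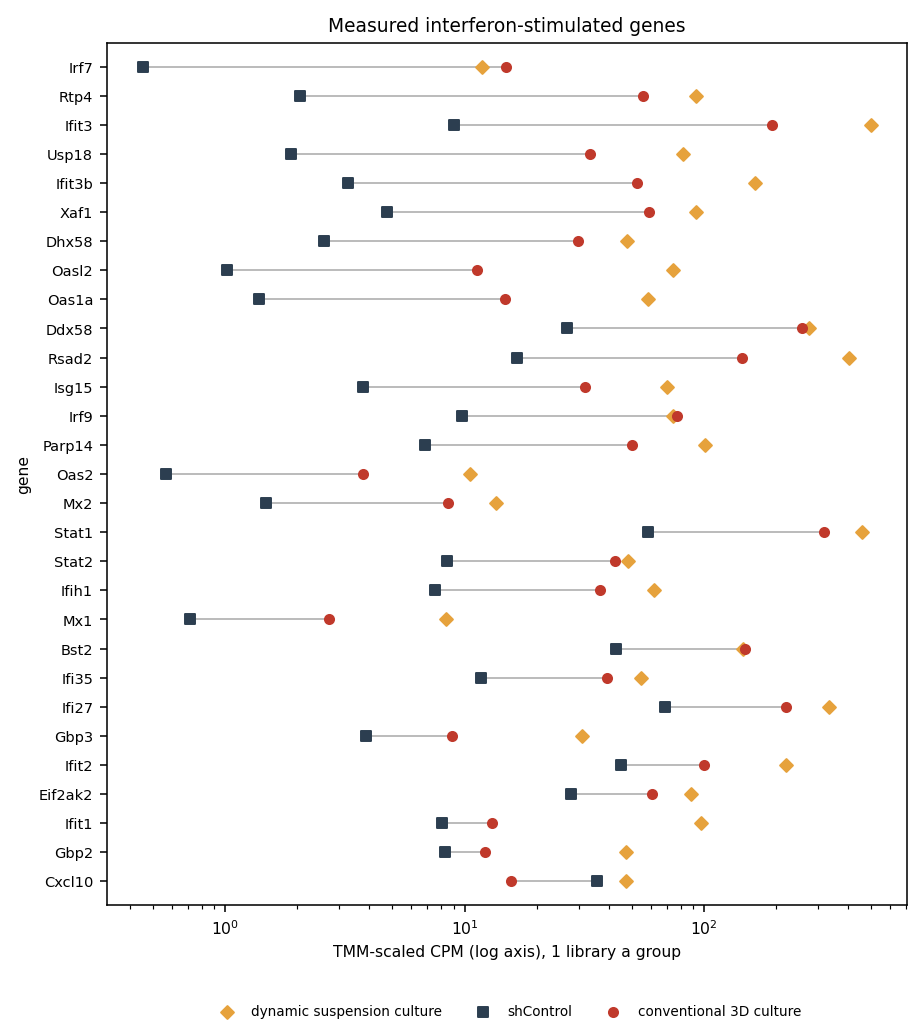
TMM-scaled CPM (horizontal log axis) of the 29 measured interferon-stimulated genes, ordered by the ratio of conventional 3D culture (red circles) to shControl (dark squares), with dynamic suspension as orange diamonds, 1 library each. The red circle lies to the right of the dark square in all but Cxcl10, and dynamic suspension is often further right, as for Ifit3 at 498 CPM.

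The interferon element (TTTC, any 2 bases, TTTC), on either strand, occurred in 11 of 23 windows (47.83%) of the 20 measured interferon-stimulated genes with a RefSeq window. Over all genes it occurred in 2.98% of windows, over genes higher beyond 2-fold in 3.11% and over genes lower beyond 2-fold in 2.48%. By gene, it was found in 8 of 17 genes called higher, in both genes inside 2-fold and in Cxcl10, so within the list the letters did not follow the direction. The windows below are those of Ifit3, of Isg15 (32.0 against 3.77 CPM, 3.07), a ubiquitin-like modifier, and of Rsad2 (145 against 16.5 CPM, 3.13), an antiviral enzyme, which were higher, and of Ifit1, which was inside 2-fold although it has the same paired element as Ifit3 (matches in capitals, 5′ to 3′ on the gene's strand, GRCm38.p6). They are Isg15 at chr4:156200819-156201068, minus strand; Ifit3 at chr19:34583279-34583528, plus strand; Rsad2 at chr12:26456453-26456702, minus strand; and Ifit1 at chr19:34640639-34640888, plus strand.
Isg15: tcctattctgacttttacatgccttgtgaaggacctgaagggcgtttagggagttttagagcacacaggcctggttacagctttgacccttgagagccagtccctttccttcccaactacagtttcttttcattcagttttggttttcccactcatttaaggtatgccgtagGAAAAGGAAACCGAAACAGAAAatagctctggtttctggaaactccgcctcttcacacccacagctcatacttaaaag
Ifit3: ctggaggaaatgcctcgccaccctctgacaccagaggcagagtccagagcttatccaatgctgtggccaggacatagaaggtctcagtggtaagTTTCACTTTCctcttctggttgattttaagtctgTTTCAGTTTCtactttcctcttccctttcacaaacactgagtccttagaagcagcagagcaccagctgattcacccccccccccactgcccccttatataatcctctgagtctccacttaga
Rsad2: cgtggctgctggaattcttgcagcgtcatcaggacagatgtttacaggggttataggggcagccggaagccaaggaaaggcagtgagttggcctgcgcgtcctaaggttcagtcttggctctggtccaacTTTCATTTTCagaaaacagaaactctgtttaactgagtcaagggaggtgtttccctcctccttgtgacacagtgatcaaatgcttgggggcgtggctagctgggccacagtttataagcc
Ifit1: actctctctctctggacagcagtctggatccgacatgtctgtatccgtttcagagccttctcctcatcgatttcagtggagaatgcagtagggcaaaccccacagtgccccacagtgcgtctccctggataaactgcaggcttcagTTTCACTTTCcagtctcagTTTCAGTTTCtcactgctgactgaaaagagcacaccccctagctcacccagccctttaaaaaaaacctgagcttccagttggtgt
Isg15 has 3 overlapping matches on the minus strand, 78 to 57 bases before the start. Ifit3 and Ifit1 each have 2 matches on the plus strand.

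Genes of antigen presentation were higher in part. Of 14 measured genes of MHC class I presentation 7 were higher (50.0%) and 0 lower, with a median log2 ratio of 1.03. By total scaling 5 were higher and 1 lower. The class I heavy chain genes H2-K1 and H2-D1 were 112 against 19.03 CPM (2.55) and 313 against 92.3 CPM (1.76), and the non-classical H2-T23 was 15.5 against 0.877 CPM (4.09). Tap1, which carries peptides into the endoplasmic reticulum, was 18.6 against 6.84 CPM (1.44), and the loading factor Tapbp (shared sequence) 302 against 45.5 CPM (2.73). The chaperones Pdia3 (-0.77) and Calr (-0.55), which also serve other proteins, lay inside 2-fold. Immune markers moved with these genes: Cd74 was 10.8 against 1.56 CPM, Cd68 12.4 against 3.56 CPM and Lyz2 2.80 against 0.861 CPM, and the summed level of the list was 26.6 against 6.12 CPM. Lyz2 reached the 1 CPM mean only through conventional 3D culture. The pan-leukocyte marker Ptprc had 8 counts in conventional 3D culture and 0 in shControl, and Cd3e, Itgam, Ncr1 and C1qa were at 0 in both. The part of immune cells in the interferon and class I values was not tested.

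Genes of cell division were lower in conventional 3D culture almost without exception. Of 30 measured genes of mitosis and the spindle 29 were lower (96.7%) and 0 higher, with a median log2 ratio of -1.49. Ndc80, which links kinetochores to microtubules, was 5.45 CPM in conventional 3D culture, 48.8 CPM in shControl and 2.50 CPM in dynamic suspension (log2 ratio -3.16, counting interval -3.34 to -2.99). Birc5, or survivin, was 23.4 against 133 CPM (-2.50), and the checkpoint kinases Bub1 and Ttk were 25.2 against 109 CPM (-2.11) and 5.32 against 21.9 CPM (-2.04). The phosphatase Cdc25c was the member inside 2-fold, at 15.2 against 26.6 CPM (-0.81). Dynamic suspension lay lower still, with a summed level of 268.5 CPM over the list against 1300 CPM in conventional 3D culture and 3840 CPM in shControl.

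DNA replication and repair genes showed the same direction, with 29 of 32 lower (90.6%), 1 higher and a median of -1.74. Tyms, the thymidylate synthase, was 7.55 against 65.4 CPM (-3.11), Uhrf1, which guides maintenance DNA methylation, 63.1 against 390 CPM (-2.63), and the helicase subunit Mcm4 38.1 against 182 CPM (-2.25). Brca1, the homologous recombination gene, went the other way (chr11:101488764-101551955, minus strand). It stood at 477 CPM in conventional 3D culture, 102.5 CPM in shControl and 28.4 CPM in dynamic suspension (log2 ratio 2.22, counting interval 2.18 to 2.26), so the conventional 3D library was high beside both. Brca2 (10.3 against 15.9 CPM, -0.62) and the polymerase Pole (35.5 against 56.2 CPM, -0.66) lay inside 2-fold.

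The regulators of G1 were mixed, with 7 of 22 lower (31.8%) and 2 higher (9.1%), or 10 lower and 1 higher by total scaling. The lower members included the S-phase cyclin Ccne2 (3.65 against 22.3 CPM, -2.60) and the E2F factors E2f7, E2f8, E2f2 and E2f4. The higher members were the D-type cyclin Ccnd2 (1371 against 662 CPM, 1.05) and the CDK4/6 inhibitor Cdkn2c (168 against 57.2 CPM, 1.55). In the Myc network 9 of 19 were lower (47.4%) and 2 higher, with a median of -0.96, but of the 15 members of own sequence 5 were lower, with a median of -0.35. Myc itself was 36.0 against 70.1 CPM (-0.96), just inside 2-fold. Its ribosome-biogenesis targets Nop58 (30.2 against 217 CPM, -2.84), Nop56 (72.7 against 276 CPM, -1.93) and Ncl (275.5 against 1087 CPM, -1.98) were lower, and the 2 higher members, Mxd4 (186 against 40.5 CPM, 2.20) and Mxi1, encode antagonists of Myc. Chromatin silencers were also mixed, at 4 of 18 lower (22.2%) and 2 higher (11.1%), or 8 lower by total scaling. The Polycomb methyltransferase Ezh2 was 55.5 against 207 CPM (-1.90), whereas its relative Ezh1 was 130 against 42.0 CPM (1.63).

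More p53 targets were lower than higher. Trp53, which encodes p53, was 143.5 CPM in conventional 3D culture and 201 CPM in shControl (log2 ratio -0.49), inside 2-fold. Mdm2, whose product tags p53 for destruction and which p53 in turn induces, was 32.3 CPM (counting interval 30.8 to 33.9) against 114 CPM (111 to 117), a log2 ratio of -1.82. Cdkn1a, the p53-induced inhibitor p21, was 341.5 against 424 CPM (-0.31). Of 32 measured targets 10 were lower (31.2%) and 3 higher (9.4%), with a median of -0.68, and by total scaling 15 were lower and 1 higher. Lower members included Pidd1 (5.54 against 36.2 CPM, -2.70), Aen, an apoptosis-enhancing nuclease (35.3 against 146 CPM, -2.05), and Gtse1, a G2-phase protein that restrains p53 (34.3 against 141 CPM, -2.04). Phlda3, an inhibitor of Akt, was higher at 454 against 167 CPM (1.44), as was the fructose bisphosphatase-like Tigar at 94.4 against 46.1 CPM (1.03). Among p53 regulators 4 of 18 were lower (22.2%) and 1 higher (5.6%), the kinase Hipk2 at 82.2 against 22.2 CPM (1.89).

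Genes of the amino acid program driven by ATF4 were lower or inside 2-fold. Atf4 stood at 101 CPM in conventional 3D culture, 483 CPM in shControl and 270.1 CPM in dynamic suspension (log2 ratio -2.25, counting interval -2.30 to -2.21). Of 30 genes of the program 13 were lower (43.3%) and 0 higher, with a median of -0.79. Psat1 of serine synthesis was 97.5 against 306 CPM (-1.65), Shmt2 of mitochondrial folate metabolism 134 against 371 CPM (-1.47) and Cth of cysteine synthesis 5.51 against 21.3 CPM (-1.94). Heat shock genes were lower in 7 of 18 cases (38.9%) and higher in 2, the stress-inducible pair Hspa1a and Hspa1b, which share sequence. Of the 11 of own sequence 4 were lower and 0 higher. Hsph1, a partner of HSP70, was 44.2 against 163 CPM (-1.88), and Hsp90aa1 (shared sequence) 248 against 1854 CPM (-2.90). Of 22 chaperones and stress sensors of the endoplasmic reticulum 4 were higher and 4 lower (18.2% each), shares near the background, and by total scaling 2 were higher and 5 lower. Hsp90b1 (347 against 1248 CPM, -1.85), Canx (505 against 1056 CPM, -1.06), Pdia6 and Creld2 were lower, while the stress sensors Ern1 (84.7 against 30.2 CPM, 1.49) and Atf6 (152 against 66.7 CPM, 1.19) were higher with Dnajb9 and Edem1.

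Genes of lipid synthesis were higher or inside 2-fold. Of 25 measured genes of cholesterol synthesis and uptake 11 were higher (44.0%) and 0 lower, with a median of 0.83. Insig1, which holds back the activation of SREBP and is its target, was 385 CPM in conventional 3D culture and 59.5 CPM in shControl (log2 ratio 2.69, counting interval 2.64 to 2.74). The mevalonate decarboxylase Mvd was 63.8 against 13.1 CPM (2.29). Srebf2, which encodes the factor that drives the pathway, was inside 2-fold at 323 against 186.5 CPM (0.79). In fatty acid synthesis 8 of 17 were higher (47.1%) and 0 lower. The desaturase Scd1 was 192 against 39.4 CPM (2.29), the carboxylase Acacb 65.2 against 12.8 CPM (2.35) and the lipogenic regulator Thrsp 10.9 against 0.698 CPM (3.90), whereas the synthase Fasn lay at 734 against 369.5 CPM (0.99). Of 8 cholesterol export genes Apoe alone was higher, at 1689 against 772 CPM (1.13), and by total scaling 0 were.

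Glutathione and iron genes divided within their lists. Of 31 NRF2 and glutathione genes 11 were higher (35.5%) and 4 lower (12.9%), with a median of 0.74. Without members of shared sequence, 7 of 25 were higher and 4 lower, with a median of 0.47. The conjugating enzymes Gstm1 (354 against 33.9 CPM, 3.38) and Gsta4 (131 against 12.9 CPM, 3.34) and the quinone reductase Nqo1 (15.41 against 1.90 CPM, 3.0) were higher. Nfe2l2, the gene of NRF2 itself, was lower at 92.3 against 228 CPM (-1.30), with the thioredoxin genes Txn1 (-1.40) and Txnrd1 (-1.24) and the peroxidase Gpx1 (-1.40). In iron handling, 2 of 14 were higher (14.3%) and 3 lower (21.4%), against a background of 14.1% and 14.9%. The storage subunit Fth1 was 8541 against 2021 CPM (2.08) and the importer Slc11a2 1032 against 194.7 CPM (2.41), while the transferrin receptor Tfrc was 177.5 against 364 CPM (-1.04) and the ferroxidase Cp 4.29 against 67.4 CPM (-3.96).

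Clock and lysosome genes had more members higher than lower. Of 15 clock genes 6 were higher (40.0%) and 0 lower, with a median of 0.83, and by total scaling 5 were higher and 1 lower. The output factors Dbp (25.1 against 4.45 CPM, 2.49) and Tef (251.0 against 74.4 CPM, 1.75), the repressor Nr1d1 (59.9 against 12.5 CPM, 2.26) and Per1 (62.1 against 23.6 CPM, 1.40) were among them, whereas Bhlhe40 and Bhlhe41 lay at log2 ratios of -0.19 and -0.11. The labels give no time of day for the harvests. Of 29 lysosome and autophagy genes 5 were higher (17.2%) and 0 lower, a share near the background of 14.1%, and by total scaling 2 were higher and 1 lower. Map1lc3a, an LC3 gene of the autophagosome, was 72.6 against 18.1 CPM (2.0), and the selective autophagy receptor Optn 216 against 57.3 CPM (1.91). The E-box CACGTG occurred in 30.77% of 26 windows of lysosome genes against 6.02% of all windows.

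Matrix genes were higher in 14 of 28 cases (50.0%) and lower in 3 (10.7%), with a median log2 ratio of 1.10, and by total scaling 13 were higher and 5 lower. The fibrillar collagen Col3a1 was 45.3 CPM in conventional 3D culture, 8.70 CPM in shControl and 8.23 CPM in dynamic suspension (2.38), so the conventional 3D library stood above both. Col6a1, Col6a2 and Col6a3, the chains of collagen VI, were higher together at log2 ratios of 2.58, 2.49 and 2.73, from levels of 0.633 to 1.27 CPM in shControl. The lower members were Sparc, a collagen-binding glycoprotein (559 against 2140 CPM, -1.94), Col5a1 (11.7 against 36.4 CPM, -1.63) and Spp1, osteopontin (13.7 against 30.9 CPM, -1.18). Because Sparc is so abundant, the summed level of the list went the other way, at 1834 against 2991 CPM. Fibroblast markers moved with the collagens. Of 7 measured fibroblast markers 6 were higher and 0 lower, with a summed level of 121 against 32.8 CPM. Lum was 2.33 against 0.455 CPM, Dcn 8.66 against 2.50 CPM and Thy1 2.29 against 0.373 CPM, while Fap had 0 counts in conventional 3D culture and 21 in shControl. Lum and Thy1 reached the 1 CPM mean only through conventional 3D culture, and Fap did not reach it. The count of 6 higher and 0 lower therefore depends in part on the filter. The fibrillar collagens Col1a1, Col1a2 and Col3a1 count in both groups. The part of other cells in the matrix values was not tested.

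Proteases and adhesion genes held some of the widest single differences. Hpse, the heparanase that cuts heparan sulphate chains, was 997 CPM in conventional 3D culture, 28.9 CPM in shControl and 350 CPM in dynamic suspension (log2 ratio 5.11, counting interval 5.04 to 5.18; chr5:100679484-100719716, minus strand). Adam23, a disintegrin-domain protein, was 274 against 26.8 CPM (3.35) and the aggrecanase-family protease Adamts1 908 against 280 CPM (1.70), while the plasminogen activator Plat was lower at 0.808 against 4.68 CPM (-2.48). In all, 7 of 22 protease and inhibitor genes were higher (31.8%) and 3 lower. Among 20 integrin and adhesion genes 4 were higher and 5 lower. Itgb3, the beta subunit of the vitronectin receptor, was 759 against 41.8 CPM (4.18, interval 4.13 to 4.24; chr11:104608000-104670476, plus strand), and its partner Itgav was 269 against 106 CPM (1.34). Itgb1 was level at 540 against 539 CPM (0.00). The lower members were the immunoglobulin-family adhesion genes Mcam (12.7 against 442 CPM, -5.12), Ncam1 (11.0 against 53.7 CPM, -2.28), Alcam (3.01 against 14.6 CPM, -2.27) and L1cam (7.76 against 17.3 CPM, -1.16) and the cadherin Cdh2 (34.6 against 112 CPM, -1.70). Mcam, also known as CD146, stood at 152 CPM in dynamic suspension, between the other two. Among mesenchymal phenotype genes, 3 of 11 were lower (27.3%), Sparc, Cdh2 and Snai2. Of these 11 genes 1 was higher (9.1%), the receptor kinase Axl at 119 against 30.1 CPM (1.98). The medians of the protease (0.10), adhesion (0.05) and mesenchymal (0.34) lists turn negative by total scaling, at -0.15, -0.20 and -0.33.

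Genes best known from muscle, striated or smooth, formed another group. Of 16 measured members 10 were higher (62.5%) and 1 lower, and 14 further members were under the 1 CPM mean. Myom1, a protein of the sarcomere's M-band, was 247 CPM in conventional 3D culture (counting interval 242.7 to 251.2), 2.94 CPM in shControl (2.53 to 3.40) and 2.67 CPM in dynamic suspension, a log2 ratio of 6.38 over shControl. Asb10, an ankyrin-repeat ubiquitin ligase adaptor, was 24.8 against 0.373 CPM (5.93), Smtnl1, a smoothelin-like regulator of contraction, 25.4 against 1.07 CPM (4.52), and the muscle enolase Eno3 385 against 20.9 CPM (4.21). Dynamic suspension held 1.42, 1.27 and 26.1 CPM of these 3 genes, below conventional 3D culture in each case. The smooth muscle actin gene Acta2 was also higher, at 10.05 against 2.29 CPM (2.12). In the libraries labelled knockdown and overexpression, whose unit may differ, Acta2 was at 0 CPM in both. Col3a1 was at 0.0656 and 0.179 CPM there, and Myom1 at 0.656 and 61.9 CPM. The part of other cells in the Acta2 value was not tested. Tpm1, a broadly expressed tropomyosin, was lower at 243 against 686 CPM (-1.50), and the creatine kinase Ckb was level at 269 against 264 CPM (0.03).

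Signalling genes showed divided lists. Tgfb1, the TGF-β1 ligand, was 194.6 CPM in conventional 3D culture, 23.2 CPM in shControl and 88.7 CPM in dynamic suspension (log2 ratio 3.07). It was the member of 19 in the TGF-β and BMP list that was higher, and 5 were lower (26.3%). These included the feedback inhibitor Smad7 (0.752 against 6.98 CPM, -3.16) and the BMP-responsive Id1 (-2.25), Id2 (23.9 against 75.6 CPM, -1.66) and Id3 (-2.74). The targets of YAP and TEAD had 2 of 16 higher (12.5%) and 3 lower (18.8%), shares near the background. Axl and Myof (145 against 59.3 CPM, 1.29) were higher. Ccn1 (11.4 against 56.6 CPM, -2.30), Ccn2 (4.55 against 23.1 CPM, -2.33) and Amotl2 (12.2 against 72.0 CPM, -2.55) were lower. The median of that list (0.18) and of the TGF-β list (0.17) turn to -0.07 and -0.08 by total scaling. Immediate early genes were split, 6 of 20 higher (30%) and 4 lower (20%), or 8 lower by total scaling. Nr4a3, an orphan nuclear receptor, was 570.0 against 39.5 CPM (3.85, counting interval 3.79 to 3.91), and Egr1, a serum-responsive zinc finger factor, 4.17 against 22.5 CPM (-2.42), while Jun lay at 55.5 against 47.8 CPM (0.22).

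Over the outputs of the MAPK cascade, 5 of 23 genes were higher (21.7%) and 4 lower (17.4%), shares near the background, and 14 lay inside 2-fold. The MAP kinase phosphatase genes Dusp1 (68.4 against 6.93 CPM, 3.30), Dusp2 (25.2 against 10.5 CPM, 1.27) and Dusp4 (206 against 102 CPM, 1.01) were higher. The ETS factors Etv4 (0.883 against 6.92 CPM, -2.92) and Etv5 (9.13 against 24.6 CPM, -1.43, shared sequence), the inhibitor Spry4 (5.84 against 12.3 CPM, -1.07) and the receptor kinase Epha2 (0.564 against 8.62 CPM, -3.85) were lower. Among 17 chemokines, cytokines and genes of NF-κB feedback 5 were higher and 5 lower (29.4% each). Lif, the leukaemia inhibitory factor, was 0.489 CPM in conventional 3D culture, 20.3 CPM in shControl and 16.2 CPM in dynamic suspension (-5.28), so conventional 3D culture was low beside both. The non-canonical NF-κB genes Nfkb2 (189 against 67.1 CPM, 1.49) and Relb (70.2 against 29.0 CPM, 1.27), the macrophage growth factor gene Csf1 (119 against 47.9 CPM, 1.32) and the chemokine Ccl5 (19.2 against 6.98 CPM, 1.46) were higher. In the BCL2 and death receptor list 6 of 21 were higher (28.6%) and 2 lower (9.5%). The apoptosis inhibitors Cflar (265 against 89.1 CPM, 1.57) and Xiap (80.6 against 31.9 CPM, 1.33) and the killer gene Bmf (43.7 against 9.79 CPM, 2.15) were higher, and Bcl2 was lower at 12.0 against 30.1 CPM (-1.32).

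Pigment cell genes were largely level. Of 23 lineage and melanosome genes 4 were higher (17.4%) and 3 lower (13.0%), shares near the background. Oca2, the melanosome channel protein whose loss causes albinism, was 233 CPM in conventional 3D culture, 27.5 CPM in shControl and 74.4 CPM in dynamic suspension (log2 ratio 3.08), and the copper transporter Atp7a was 142 against 34.4 CPM (2.04). Mlana (482 against 1219 CPM, -1.34), Gpnmb (3596 against 9828 CPM, -1.45) and the stem cell factor receptor Kit (0.977 against 4.84 CPM, -2.27) were lower. Mitf, the lineage's master regulator, stood at 344 against 314 CPM (0.13). Of 5 measured Schwann and neural markers 3 were higher and 1 lower. The higher ones were S100b, also made by melanoma cells, at 282 against 65.5 CPM (2.11), Mbp at 59.9 against 18.0 CPM (1.73), and Gfap at 26.2 against 7.78 CPM (1.75). Ngfr of the same list, under the 1 CPM mean, went the other way, with 0 counts in conventional 3D culture and 100 in shControl.

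Markers used to recognise stem-like cells were not higher as a group. Of 28 listed, 17 were measured, 1 was higher (5.9%), 4 were lower (23.5%) and the median of -0.02 changed sign with the scaling (0.02 by TMM over the 2 libraries). By total scaling 1 was higher and 7 were lower. The higher member was Kdm5b, the demethylase that marks slow-cycling melanoma cells, at 140 against 43.8 CPM (1.68). The lower members were Kit, the neural stem cell filament gene Nes (19.7 against 68.6 CPM, -1.80), Lin28b (2.44 against 6.88 CPM, -1.48) and Klf4 (0.846 against 2.35 CPM, -1.44). Cd44, a hyaluronan receptor, was level at 483.5 against 439 CPM (0.14).

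Transcripts of the mitochondrial genome were higher while nuclear genes of the respiratory chain were not. Of the 13 protein-coding mitochondrial genes 8 were higher (61.5%) and 0 lower, with a median log2 ratio of 1.46, and 3 of the 6 without shared sequence were among them. mt-Co1 (shared sequence) was 87156 CPM in conventional 3D culture, 12303 CPM in shControl and 29348 CPM in dynamic suspension (2.83). mt-Nd5 was 8980 against 2268 CPM (1.99), while mt-Cytb lay inside 2-fold at 8052 against 6263 CPM (0.36). These transcripts are cut from shared precursors, so the members are not independent of each other. The 2 mitochondrial ribosomal RNAs and the 10 measured mitochondrial transfer RNAs were all higher as well, and mt-Rnr2 stood at 4011 against 83.0 CPM. The libraries were poly(A)-selected, so these values may not measure the levels of ribosomal and transfer RNAs. Of 33 measured genes of the nuclear respiratory chain list, which also holds regulators, 0 were higher and 4 lower (12.1%, median -0.12). That share lies below the background of 14.9% lower. Among the 4 were the regulators Ppargc1a, a coactivator of mitochondrial biogenesis, at 63.7 against 144 CPM (-1.18), and Tfam, the mitochondrial transcription factor, at 32.8 against 66.8 CPM (-1.02).

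Genes of the translation machinery and of snoRNA hosts were lower or level. Of 41 ribosomal protein genes 9 were lower (22%, background 14.9%) and 0 higher, with a median of -0.53, and by total scaling 15 were lower. Most members share sequence, and of the 15 of own sequence 6 were lower and 0 higher, with a median of -0.68. Rpl11 and Rpl5 (the second of shared sequence), which also bind Mdm2, were 201 against 472 CPM (-1.23) and 317 against 737 CPM (-1.22). Of 26 proteasome genes 1 was lower and 0 higher, and by total scaling 4 were lower. Among 18 long non-coding RNAs 10 were lower (55.6%) and 3 higher. The snoRNA hosts Snhg1 (6.75 against 48.5 CPM, -2.84), Snhg15 (2.01 against 17.6 CPM, -3.11) and Snhg5 (2.39 against 15.5 CPM, -2.68) were lower, and the nuclear-retained Malat1 was higher at 82.3 against 25.9 CPM (1.67). Gene length moved with the ratio. Genes with under 1 kb of exon were higher in 9.42% and lower in 24.4% of 934 cases (median -0.42), and genes with 8 kb and more in 17.0% and 8.69% of 2221 cases (median 0.19). The part of length in the ribosomal protein and snoRNA host values was not tested.

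**Figure D4:**
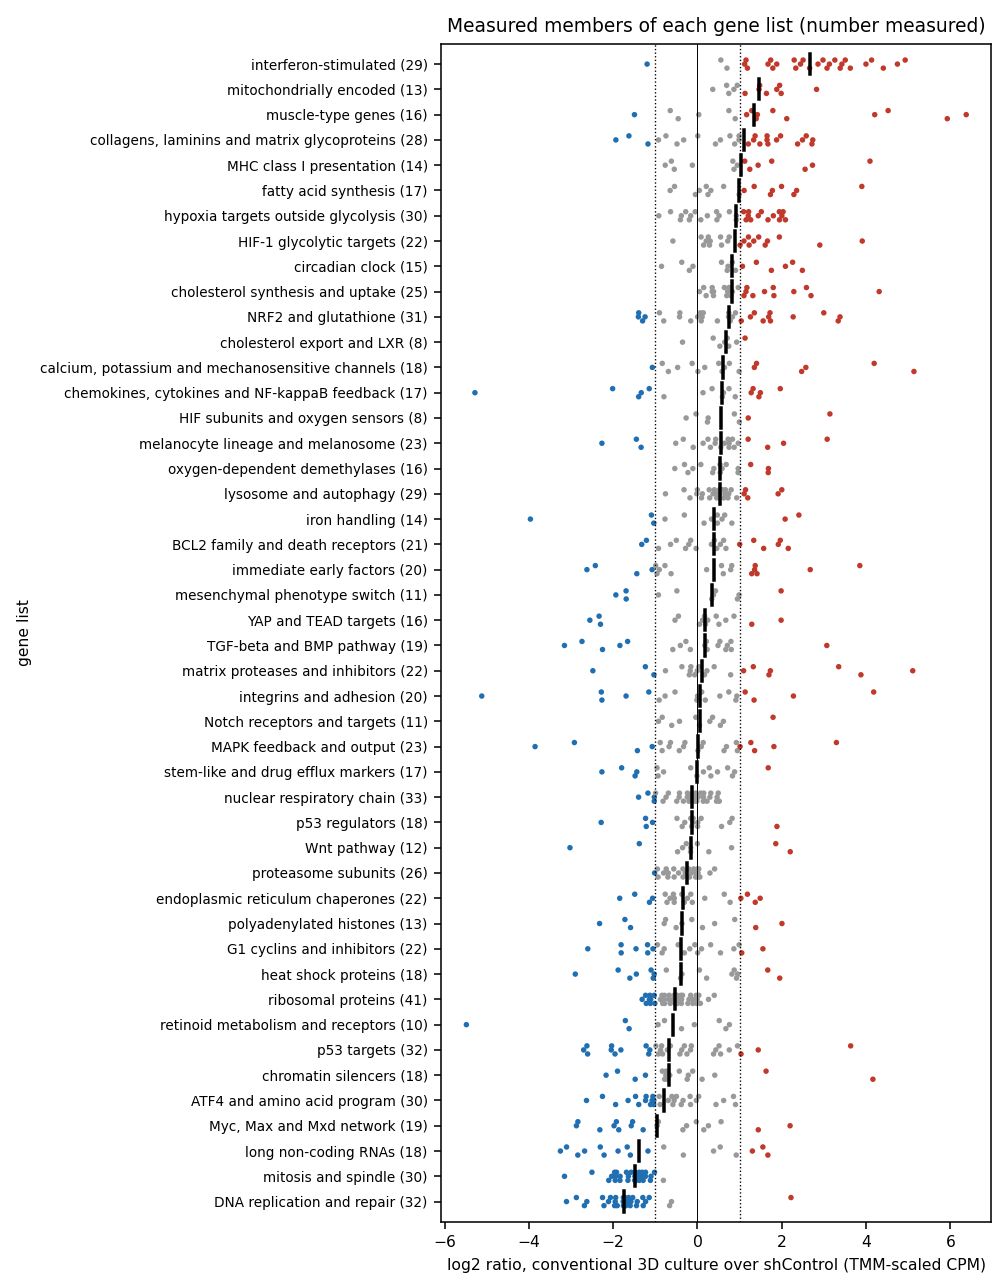
Log2 ratio of conventional 3D culture over shControl (horizontal axis, TMM-scaled CPM) for each measured member of the gene lists (rows, number measured in brackets), with the list median as a black bar and dotted lines at 2-fold. Interferon-stimulated genes stand at the top with a median of 2.66, and DNA replication (-1.74) and mitosis (-1.49) at the bottom.

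The 15 highest and the 15 lowest protein-coding genes of own sequence with a mean of at least 10 CPM came from few of the lists. Cort, which encodes the neuropeptide cortistatin, was the highest at 78.2 CPM in conventional 3D culture, 0.861 CPM in shControl and 3.06 CPM in dynamic suspension (log2 ratio 6.45, counting interval 6.12 to 6.92; chr4:149125034-149126763, minus strand). Pygm, the muscle glycogen phosphorylase, was 144 against 4.09 CPM (5.12), Lmo2, a LIM-domain adaptor of blood and endothelial transcription complexes, 45.4 against 1.40 CPM (4.99), and Map1a, a microtubule-associated protein of neurons, 255 against 14.6 CPM (4.12). Scml4, a Polycomb-related protein, was 101 against 3.12 CPM (5.00). The other highest genes, among them Myom1, Hpse, Rtp4 and Itgb3, were described above with their groups. Endothelial markers were few beside Lmo2: Vwf was 10.7 against 3.09 CPM and Egfl7 41.1 against 20.7 CPM (0.99), while Cdh5, Tek, Emcn and Cldn5 were at 0 in both libraries and Pecam1 and Kdr at 0 in conventional 3D culture.

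At the other end, Dhrs3, which reduces retinaldehyde to retinol, was 0.977 CPM in conventional 3D culture, 45.3 CPM in shControl and 211 CPM in dynamic suspension (log2 ratio -5.48, counting interval -5.96 to -5.14; chr4:144892827-144928209, plus strand). With it, 2 other genes of 10 in the retinoid list were lower (5 of the 10 in all by total scaling), the retinoic acid hydroxylase Cyp26b1 (4.08 against 13.4 CPM, -1.71) and the receptor Rarb (3.48 against 10.8 CPM, -1.62, shared sequence). Nppb, the natriuretic peptide precursor, was 0.940 against 28.8 CPM (-4.89), the keratin Krt80 0.827 against 20.4 CPM (-4.57) and Gxylt2, a xylosyltransferase that acts on Notch, 15.7 against 261 CPM (-4.05). The gasdermin Gsdmc was 10.0 against 115 CPM (-3.51), the gap junction gene Gja1 1.79 against 18.98 CPM (-3.39), and Mest, an imprinted gene, 4.74 against 50.7 CPM (-3.41). Lgals3, the galactose-binding lectin galectin-3, was 32.5 CPM in conventional 3D culture against 303 CPM in shControl and 301 CPM in dynamic suspension (-3.22), so it was low in conventional 3D culture beside both.

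**Figure D5:**
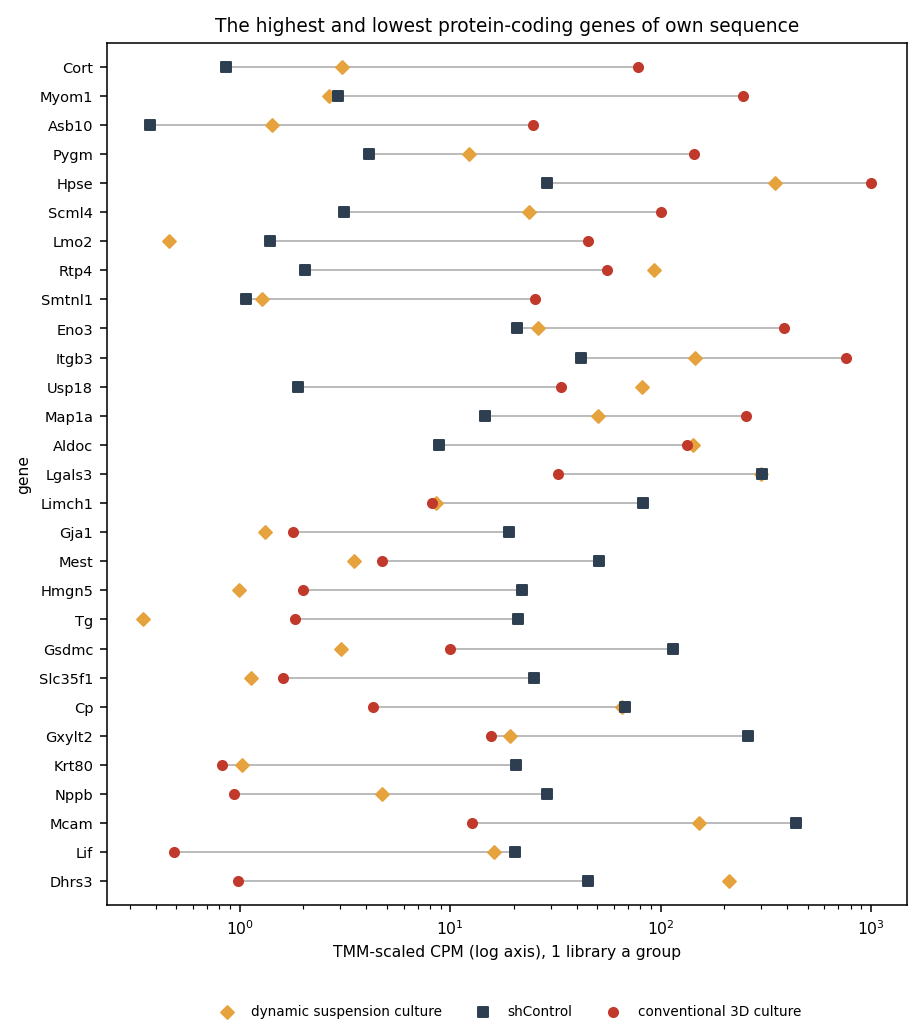
TMM-scaled CPM (horizontal log axis) of the highest and lowest protein-coding genes of own sequence, 15 a direction with 1 of the highest not shown, in conventional 3D culture (red circles), shControl (dark squares) and dynamic suspension (orange diamonds), 1 library each. Dynamic suspension lies near shControl for genes such as Myom1 (2.67 against 2.94 CPM) and near conventional 3D culture for others such as Gxylt2 (19.3 against 15.7 CPM).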

How the data were processed

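Per the labels' protocols, the 5 libraries of B16F10 cells were poly(A)-selected and strand-specific, and were read as 150 bp pairs on a NovaSeq instrument. The submitters' processing notes name HISAT2, StringTie and cutadapt, and mm10 and GRCm38.p6 as builds. Which program counted the reads, and with which annotation, is not given in the sources used here. The 2 columns compared are used as deposited, as estimated counts per gene that the authors did not scale, a reading that rests on their pattern, since low values pile up at 4 and 8, so counting intervals are approximate and may be too narrow. The deposited column of dynamic suspension has the same pattern. The deposited columns labelled knockdown and overexpression look like raw counts by their values. They entered the scaling, and whether their unit is the same is not known. Every column was assigned to a sample, with 0 left over.

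TMM factors came from edgeR 4.0.16 in R 4.3.3 over all 5 libraries (0.869 for conventional 3D culture and 1.035 for shControl). The log2 ratio of TMM-scaled CPM used a prior count of 2. Genes needed a mean of 1 CPM over the 2 libraries. Intervals are exact Poisson intervals for levels and exact conditional binomial (Clopper-Pearson) intervals at 95% for ratios, and cover counting error only. The floor for a gene at 0 is 3 counts per library, or 0.0564 CPM (conventional 3D culture) and 0.0487 CPM (shControl). The calling was also run on simulated counts with counting error only, which does not test it for variation between replicates or scaling error. Names, coordinates and shared 50-base words (1 in 8 sampled) came from GENCODE M21 (GRCm38), in which all 54100 identifiers matched. Promoter windows came from RefSeq (GRCm38.p6). Reads of overlapping genes on 1 strand cannot be told apart.

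The 54 gene lists hold 1098 genes and are described by counts and medians. Genes named are Hif1a, Epas1, Trp53, Mdm2 and Cdkn1a, the 15 highest and 15 lowest genes, and in each list up to 5 called members of each direction and the 2 most abundant members inside 2-fold. Beyond these, genes of other kinds were chosen after their values were seen: cell type markers, genes inside promoter windows, members given for contrast and genes at the edge of the call. The comparison, its lists and its rules were chosen with earlier results of these data known. Alternatives were other scalings (total, TMM over the 2 libraries, DESeq2 1.42.0 size factors, scaling without mitochondrially encoded genes), another prior count, other filters and genes of own sequence. The values of some genes that the naming rule selects are not reported here.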

Additional observations from a re-analysis of the deposited data

How the results depend on the processing

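No paired analysis was possible because each group has 1 library, and for the same reason no replicate could be left out. The counts of 1819 higher and 1925 lower genes stayed within 1.5 times in 12 recomputed counts and moved further in 4. They were 1123 and 1165 with a mean of at least 10 CPM (9482 genes) and 3125 and 3866 with no filter (22373 genes), where the number of genes tested differs by construction. By total scaling, 1278 genes were called higher and 1925 lower under both scalings. Total scaling moves all ratios down, so a lower call could be lost only at the 1 CPM filter. That the 1925 lower calls stayed is therefore no check on them. Of the recomputed list medians, 379 kept their sign and moved by less than 0.3, 16 moved further and 16 changed sign. By total scaling these were mesenchymal (-0.328), proteases (-0.154), integrins (-0.203), YAP (-0.075), Notch (-0.198), TGF-beta (-0.078) and MAPK (-0.236). The stem-like median was 0.02 by TMM over the 2 libraries, 0.006 by DESeq2 size factors and 0.141 at 10 CPM. At 10 CPM the mesenchymal (-0.489), protease (-0.006) and retinoid (0.22) medians also changed sign, and with no filter those of Notch (-0.04), immediate early genes (-0.298) and endothelial markers (-0.469). Called log2 ratios of named genes, at 1 or more in either direction, could not change sign in these settings, so their sign is no check. Another scaling moves all ratios by nearly the same amount, and the median of all genes moved by 0.26 at most. Depth limits genes near the floor of 3 counts, and no setting replaces the missing replicates.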

Other observations

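The genes named here were chosen after their values were seen. Txnip, an inhibitor of thioredoxin and of glucose uptake, was 542 CPM in conventional 3D culture, 56.6 CPM in shControl and 223 CPM in dynamic suspension. The glycerol phosphate dehydrogenase Gpd1 was 342 against 42.3 CPM (log2 ratio 3.01), the sphingosine kinase Sphk1 222 against 16.1 CPM (3.78), the angiotensinogen gene Agt 164 against 11.7 CPM (3.80) and Coq8a, a kinase-like protein of coenzyme Q synthesis, 589 against 58.2 CPM (3.34). Of genes for RNA-binding proteins, 3 picked for their values were Hnrnpm at 61.9 against 366.5 CPM (-2.56), Hnrnph1 at 98.4 against 415 CPM (-2.08) and Taf15 at 60.2 against 309 CPM (-2.36). Lmnb1, the nuclear lamin B1, was 15.1 against 129 CPM (-3.09).

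Some genes were read in 1 library and at 0 in the other, where the floor of 3 counts per library gives a bound. The photoreceptor calcium sensor gene Guca1a had 427 counts in conventional 3D culture and 0 in shControl, at least 165-fold higher, and was also at 0 in dynamic suspension. Guca1b, close to it on chromosome 17, went the other way, with 0 counts in conventional 3D culture and 54 in shControl. How reads were divided between these genes was not tested. Itgb2, the leukocyte integrin beta chain, had 180 counts against 0 (at least 69.5-fold higher) and the interleukin-1 receptor gene Il1r1 108 against 0 (at least 41.7-fold higher). The growth factor gene Pdgfb had 0 counts in conventional 3D culture against 160 (at least 46.1-fold lower) and Il20rb 0 against 168 (at least 48.4-fold lower).

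Around Brca1 on chromosome 11, the neighbours did not all stand with it. Nbr1, which starts next to it, was 171 against 124 CPM (0.47) and Dhx8 79.8 against 75.6 CPM (0.08), whereas Tmem106a (20.6 against 3.46 CPM, 2.56), Rdm1 (59.9 against 13.2 CPM, 2.18) and Ifi35 (39.3 against 11.8 CPM, 1.74) were higher and Etv4 was lower.

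For several of the widest differences, the libraries labelled knockdown and overexpression, which look like raw counts of possibly another unit, stood far from each other. Hif1a was 95.1 CPM in the library labelled knockdown, above the 61.3 CPM of shControl and against its label, and 384 CPM in the library labelled overexpression. Myom1 was 0.656 CPM in the library labelled knockdown and 61.9 CPM in the library labelled overexpression, beside 2.94 CPM in shControl and 247 CPM in conventional 3D culture. Hpse was 11.3 and 1136 CPM beside 28.9 and 997 CPM, and Mcam 344 and 32.2 CPM beside 442 and 12.7 CPM. Dhrs3 was 16.8 and 0.595 CPM beside 45.3 and 0.977 CPM. The interferon genes Rtp4 and Usp18, picked for their values, were low in both of these libraries: Rtp4 was 0.525 and 1.97 CPM and Usp18 0.525 and 2.02 CPM, beside 55.7 and 33.6 CPM in conventional 3D culture.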
